A study of Mus musculus with 24 samples.

Results

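The genes described here copy DNA or make its building blocks. They are 43 genes taken from a list of symbols: enzymes of deoxynucleotide synthesis, the MCM helicase, factors that license and fire replication origins, DNA polymerases and primase, the sliding clamp and its loader, single-strand binding and Okazaki fragment proteins, replication-coupled chromatin factors, and the cyclins and the transcription factor that open S phase. Of the 43, 42 were found by their platform symbol among the 12393 genes of the array. The exception was Chaf1a, the large subunit of the histone chaperone CAF-1, which had no probe set carrying its symbol alone. A gene was represented by its probe set with the highest mean, and 25 of the 42 were bright enough to be among the 8008 genes tested. These genes and the other gene lists were chosen with earlier results of these data known. Their shares set beside all genes are therefore descriptions.

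Expression was measured in bulk RNA of the left lung lobe of male mice. C3H/HeOuJ (OuJ) mice carry a sufficient Tlr4, the receptor for bacterial lipopolysaccharide, and C3H/HeJ (HeJ) mice carry a dominant negative one. Each strain breathed air, or ozone for 6, 24 or 48 h, an oxidant gas that injures the airway and alveolar lining, with 3 mice and 3 arrays in each of the 8 groups. The labels give neither the age of the mice nor the ozone concentration. The strains are separate lines, so the state of Tlr4 and any other difference between them cannot be told apart, and no other allele or agent is named. In bulk tissue, fewer cells of a type and less RNA per cell cannot be told apart.

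Cells copy their genome in S phase. Origins are licensed in G1, when the origin recognition complex, Cdc6 and Cdt1 load the MCM helicase, and they fire when cyclin-dependent kinases recruit Cdc45 and the GINS complex. Many of these genes are transcribed under E2F factors as cells leave quiescence, so their transcripts follow cycling cells. Cells of the adult lung divide rarely at rest, and epithelial, endothelial and immune cells can enter the cycle after injury.

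Promoters were taken from RefSeq (GRCm38.p6), which held an entry for 36 of the 43 genes. Entries were missing for Mcm4, Gmnn, Gins1, Pole, Prim2, Rfc2 and Ccne2. Each window runs from 250 bases before to 50 bases after the start of transcription. The E2F core was searched as TTNNCGC, where each N is C or G, and on the other strand as GCGNNAA, with overlapping matches counted. The 250 bases before the start are shown for Rrm2, Mcm7 and Pcna, the members whose transcripts rose at 48 h in both strains, for Mcm5, the only one of the 9 members called at 48 h whose printed stretch holds 3 matches, and for Uhrf1, which had the largest change at 48 h in HeJ among the members too dim to be tested. Capitals mark E2F words, and 2 of the 3 in Mcm5 overlap in 1 run.
Rrm2, chr12:24708004-24708253, plus strand: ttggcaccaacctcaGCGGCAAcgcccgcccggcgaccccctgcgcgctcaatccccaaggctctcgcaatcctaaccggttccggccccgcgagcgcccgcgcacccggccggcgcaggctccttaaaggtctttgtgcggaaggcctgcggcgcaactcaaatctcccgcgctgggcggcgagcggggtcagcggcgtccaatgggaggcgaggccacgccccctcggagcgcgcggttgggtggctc
Mcm7, chr5:138171884-138172133, minus strand: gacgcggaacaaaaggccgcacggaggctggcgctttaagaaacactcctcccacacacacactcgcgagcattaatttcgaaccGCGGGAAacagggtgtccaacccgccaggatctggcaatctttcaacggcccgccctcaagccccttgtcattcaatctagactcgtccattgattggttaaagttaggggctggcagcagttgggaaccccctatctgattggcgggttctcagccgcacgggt
Mcm5, chr8:75109259-75109508, plus strand: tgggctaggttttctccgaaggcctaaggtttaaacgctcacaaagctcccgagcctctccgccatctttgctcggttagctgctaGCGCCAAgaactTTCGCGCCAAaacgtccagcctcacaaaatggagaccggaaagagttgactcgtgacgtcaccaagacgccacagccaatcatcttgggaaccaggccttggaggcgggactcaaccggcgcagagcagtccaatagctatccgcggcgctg
Uhrf1, chr17:56303087-56303336, plus strand: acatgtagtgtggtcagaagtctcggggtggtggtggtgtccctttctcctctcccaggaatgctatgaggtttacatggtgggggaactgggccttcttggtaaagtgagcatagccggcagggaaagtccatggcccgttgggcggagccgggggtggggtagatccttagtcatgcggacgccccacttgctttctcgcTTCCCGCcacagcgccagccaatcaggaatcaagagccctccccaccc
Pcna, chr2:132253181-132253430, minus strand: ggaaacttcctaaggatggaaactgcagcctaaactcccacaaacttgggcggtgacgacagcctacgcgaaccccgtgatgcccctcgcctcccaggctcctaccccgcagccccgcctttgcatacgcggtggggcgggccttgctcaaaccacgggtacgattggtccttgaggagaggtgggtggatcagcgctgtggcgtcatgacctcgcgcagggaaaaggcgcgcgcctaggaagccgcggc
Pcna has no E2F word in its window, which says only that these letters are not there.

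In the full windows of 300 bases, 22 of the 36 genes (61.1%) held an E2F word, against 13.7% of the 17492 protein-coding genes of the promoter table and 19.2% of the 6487 tested genes with a promoter. By response to ozone, the share was 5 of 8 (62.5%) for members called at 48 h in either strain, 8 of 13 (61.5%) for those tested and not called, and 9 of 15 (60%) for those not tested. The CCAAT box, searched as CCAAT and ATTGG, was in 22 of 36 (61.1%) against 42.3% of all protein-coding genes and 42% of the tested genes. The windows were not matched for base composition, and a match is a description of letters, not of binding.

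Values are array signals scaled by the authors to a common mean, and a change is the difference between group means of log2(signal + 16), given ± SE, with 3 arrays in a group. A change of 1 is close to 2-fold at high signals, and the scale understates changes at low ones. P-values come from limma over all 24 arrays, adjusted by Benjamini-Hochberg over the 8008 genes, and a gene was called at an adjusted p under 0.05. Arrays of a group correlated at a Pearson r of 0.966 to 0.979 over probe sets, and median signals ran from 200.05 to 229.3. The lung markers Sftpc (at least 27216), Scgb1a1, Ager and Cdh5 were bright in every array. Sample codes in the labels split the arrays: air and 6 h of both strains carry code series 3, the later times code series 10 in OuJ and 13 in HeJ. What sets the 24 and 48 h groups apart from air and what sets the code series apart cannot be told apart, whereas 48 h against 24 h lies inside 1 code series in each strain.

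**Figure D1:**
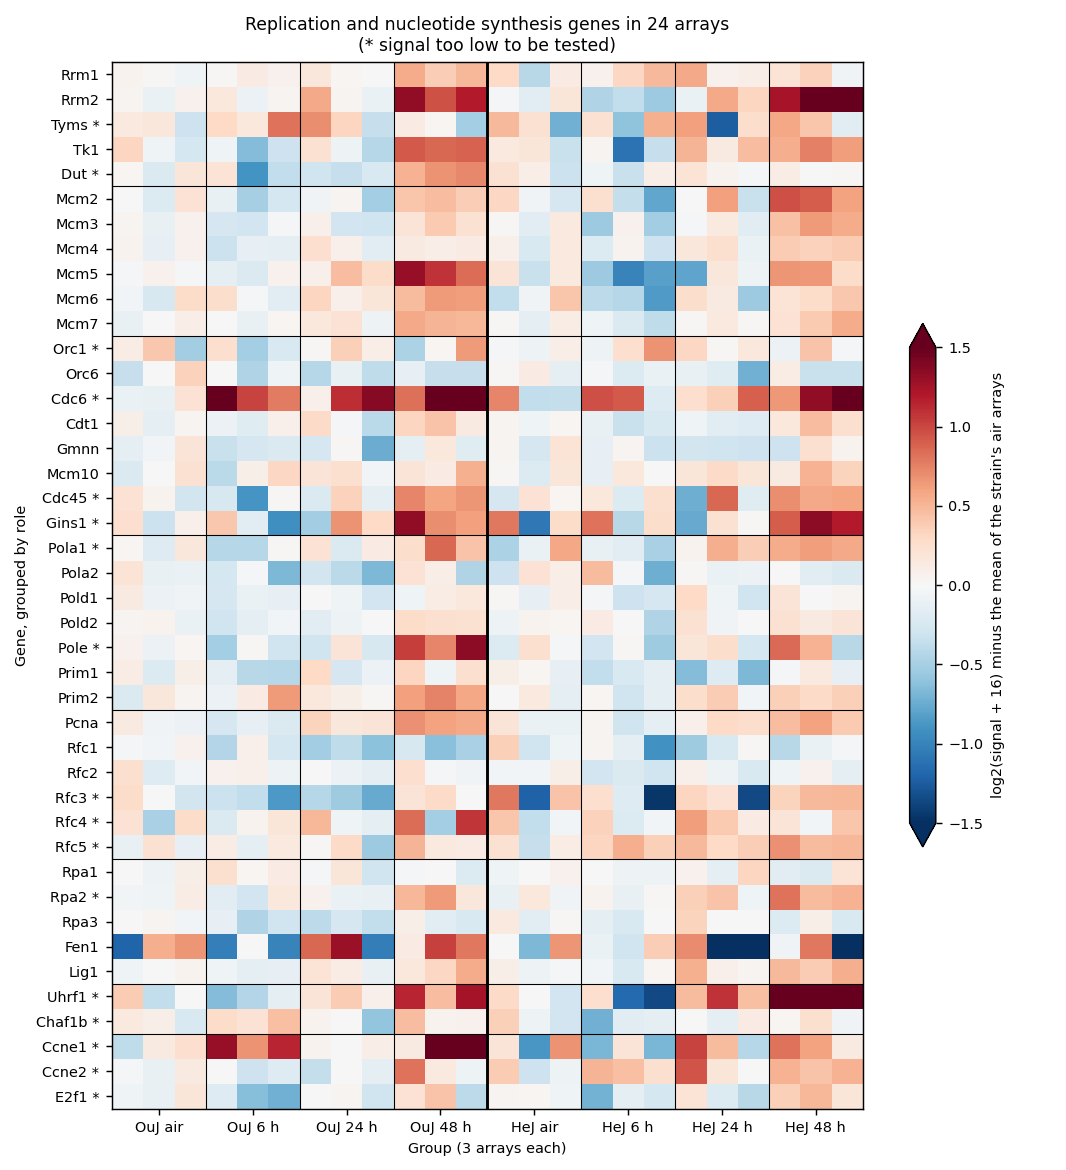
Each column is 1 array, each row 1 of the 42 genes grouped by role, and colour is log2(signal + 16) minus the mean of the strain's air arrays, with stars on the 17 genes too dim to be tested. The columns at 48 h are mostly red in both strains, with Rrm2 (1.16 in OuJ, 1.44 in HeJ on average) among the darkest rows.

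After 48 h of ozone, 6 of the 25 tested members were higher than in air in OuJ lungs and 6 in HeJ lungs, and 0 were lower. Ribonucleotide reductase subunit Rrm2, the sliding clamp Pcna and the helicase subunit Mcm7 rose in both strains, Mcm5, Tk1 and Prim2 passed in OuJ, and Mcm2, Mcm3 and Lig1 passed in HeJ. Over all genes, 7.9% were called in OuJ and 12.1% in HeJ, and 3.7% and 5.67% were called higher. The median change of the 25 was 0.28 in OuJ and 0.285 in HeJ, beside -0.02 and -0.03 for all genes tested. Of the 25, 19 and 17 lay above 0, where 46.2% and 44.8% of all genes did. Changes of the 25 ran from -0.45 for Rfc1 to 1.16 for Rrm2 in OuJ and from -0.30 for Fen1 to 1.44 for Rrm2 in HeJ. The filter bears on these counts, because Tk1, Mcm5 and Prim2 exceeded its level in 3 arrays only with the help of the 48 h arrays, while the other 22 did so without them. With no filter, 8 of all 42 members were called higher in each strain, where 2.4% of genes were in OuJ and 3.28% in HeJ. Of the 42, 35 and 34 lay above 0, where 48.8% and 44.1% of all genes did.

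The enzymes of nucleotide synthesis include the tested member with the largest change at 48 h in both strains. Rrm2 is the small subunit of ribonucleotide reductase, which makes deoxynucleotides and limits their supply in S phase. In OuJ its signals were 210.3, 191 and 214 in air, 230.3, 192 and 211 at 6 h, 312, 212 and 190.2 at 24 h and 541, 412 and 487 at 48 h. In HeJ they were 207, 188 and 240.2, 150.0, 159 and 139.7, 196, 321 and 267 and 516, 627 and 664 in the same order. All 3 arrays at 48 h lay above every other array of their strain, while the earlier groups overlapped in part. The rise from air was 1.16 ± 0.18 in OuJ (2.23-fold, adjusted p = 2.40e-04) and 1.44 ± 0.18 in HeJ (2.71-fold, adjusted p = 1.40e-05). The other kept probe sets of Rrm2 gave 1.71 and 1.77 in OuJ and 1.44 and 1.78 in HeJ, so all 3 moved the same way.

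Tk1, the cytosolic thymidine kinase that salvages thymidine in S phase, had signals of 177, 132 and 112 in OuJ air and 276, 263 and 268 at 48 h. The 48 h arrays stood above every other OuJ array, none of which exceeded 177. Its rise was 0.89 ± 0.26 (adjusted p = 0.0336), and it did not pass without OuJ air replicate 2 or 3 or without any 1 of the OuJ 48 h arrays (adjusted p from 0.0727 to 0.137). HeJ arrays read 161, 165 and 110.2 in air and 216, 253 and 231 at 48 h, also without overlap, with a change of 0.64 ± 0.26 (adjusted p = 0.113). The large reductase subunit Rrm1 changed by 0.47 ± 0.16 in OuJ (adjusted p = 0.0737) and 0.16 ± 0.16 in HeJ (adjusted p = 0.57). Its other kept probe set gave the strains in the opposite order, 0.28 in OuJ and 0.49 in HeJ. Dut, the dUTPase that keeps uracil out of DNA, was too dim to be tested. Its 48 h arrays in OuJ (217, 244 and 252) lay above its air arrays (150.2, 124 and 168), and those in HeJ (152, 140.0 and 142 against 167, 150.2 and 108) did not. Its change with no filter was 0.64 ± 0.22 in OuJ (adjusted p = 0.106). Tyms, thymidylate synthase, stayed between 8.1 and 79.3 in all 24 arrays.

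The MCM genes encode the ring-shaped helicase that unwinds DNA ahead of the fork, and all 6 subunits were tested. Their changes at 48 h were all above 0, from 0.11 to 1.08 in OuJ and from 0.30 to 0.83 in HeJ, and 2 passed in OuJ and 3 in HeJ. Mcm5 had signals of 171, 184 and 172 in OuJ air, 158, 149 and 184 at 6 h, 186, 248 and 215 at 24 h and 459, 389 and 326 at 48 h. The 48 h arrays were the highest of the strain, for a rise of 1.08 ± 0.22 (2.11-fold, adjusted p = 0.00361). HeJ lungs gave 203, 136 and 196 in air, 115, 80 and 93.2 at 6 h, 95, 199 and 166 at 24 h and 288, 284 and 217 at 48 h. There too the 48 h arrays were above all others, but the change of 0.53 ± 0.22 from air did not pass (adjusted p = 0.127).

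Mcm7 went from 876, 951 and 1009.6 in air to 1412, 1352 and 1341 at 48 h in OuJ, a rise of 0.53 ± 0.11 (adjusted p = 0.00368). In HeJ it went from 1104, 992 and 1177 to 1272, 1429 and 1609, a rise of 0.39 ± 0.11 (adjusted p = 0.0194). The groups did not overlap in either strain. The HeJ call was lost without HeJ air replicate 2 or HeJ 48 h replicate 2 or 3 (adjusted p = 0.0958, 0.0549 and 0.109). It was also lost with the mean of the gene's probe sets, with only the groups compared in the fit, and without the 4 arrays whose codes carry a suffix (adjusted p = 0.0867, 0.0668 and 0.119). Of the other 3 kept probe sets of Mcm7, 1 changed by -0.02 in OuJ at 48 h and the others by 0.40 and 0.68.

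Mcm2 and Mcm3 passed in HeJ. Signals of Mcm2 were 235, 179.9 and 154 in HeJ air and 380.4, 365 and 293 at 48 h, with no overlap and a rise of 0.83 ± 0.24 (adjusted p = 0.0255). The call was lost without HeJ air replicate 2 or 3 or HeJ 48 h replicate 1 or 2 (adjusted p from 0.0741 to 0.113). It was also lost with the other kept probe set (0.83, adjusted p = 0.0771), which has the higher mean on the linear scale. Mcm3 read 251, 220.3 and 275 in air and 342, 395 and 371 at 48 h, again apart, with a rise of 0.54 ± 0.16 (adjusted p = 0.0266). Without HeJ air replicate 1 or 2 or HeJ 48 h replicate 2 or 3 its adjusted p was 0.0618 to 0.112. The other probe sets of Mcm3, all below the filter, changed at 48 h by 0.12, 0.18, 0.08 and -0.51 in HeJ. In OuJ they changed by 0.45, 0.23, 0.77 and 1.08. Without the arrays with a code suffix neither gene passed (adjusted p = 0.0614 for Mcm2 and 0.0661 for Mcm3). In OuJ the 48 h arrays of both genes also lay above the air arrays (338, 347 and 324 against 246, 214 and 289.8 for Mcm2, 324, 373 and 330.3 against 290.1, 259 and 294 for Mcm3), with changes of 0.42 ± 0.24 and 0.27 ± 0.16 that did not pass (adjusted p = 0.339 and 0.348). Mcm6 changed by 0.58 ± 0.20 in OuJ (adjusted p = 0.0737) and 0.30 ± 0.20 in HeJ, and Mcm4 by 0.11 ± 0.13 and 0.37 ± 0.13 (adjusted p in HeJ = 0.0591).

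Among the origin factors, 4 of 8 were tested and 0 passed at 48 h in either strain. Orc6, a subunit of the origin recognition complex, changed by -0.27 ± 0.20 in OuJ and -0.19 ± 0.20 in HeJ. Cdt1, which loads the helicase, changed by 0.30 ± 0.14 and 0.28 ± 0.14, and its inhibitor geminin (Gmnn) by -0.06 ± 0.18 and -0.01 ± 0.18. Mcm10, which helps fire origins, changed by 0.28 ± 0.18 and 0.33 ± 0.18. The licensing ATPase Cdc6 was dim, with 11.1, 10.9 and 17.7 in OuJ air and 35.5, 85.1 and 79.5 at 48 h, and 36.8, 8.7 and 8.9 and 34, 63.9 and 75.4 in HeJ. With no filter its change was 1.45 ± 0.40 in OuJ (adjusted p = 0.037) and 1.16 ± 0.40 in HeJ (adjusted p = 0.0839). Its OuJ arrays at 6 h (73.2, 42.9 and 33.8) lay above the air arrays and overlapped those at 48 h. With no filter the change from air at 6 h was 1.14 ± 0.40 and did not pass (adjusted p = 0.323). Of the other dim origin factors, Cdc45 changed by 0.66 ± 0.31 and 0.62 ± 0.31, the GINS subunit Gins1 by 0.88 ± 0.44 and 1.15 ± 0.44, and Orc1 by 0.07 ± 0.29 and 0.10 ± 0.29, in OuJ and HeJ, none of which passed.

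Of the polymerase and primase genes, 1 of 5 tested passed, Prim2 in OuJ. Prim2, the large primase subunit, had signals of 141, 189.7 and 172 in OuJ air and 264, 289 and 257 at 48 h, which did not overlap, although 1 array at 6 h reached 268. The rise was 0.65 ± 0.18 (adjusted p = 0.0286). It did not pass without OuJ air replicate 1 or 3 or without any 1 of the OuJ 48 h arrays (adjusted p from 0.064 to 0.137). HeJ arrays gave 160.2, 181 and 146 in air and 212, 201 and 212 at 48 h, a change of 0.34 ± 0.18 (adjusted p = 0.259). The small primase subunit Prim1 changed by 0.17 ± 0.16 and 0.00 ± 0.16, the polymerase alpha subunit Pola2 by -0.05 ± 0.24 and -0.13 ± 0.24, and the polymerase delta subunits Pold1 and Pold2 by 0.07 ± 0.14 and 0.25 ± 0.13 in OuJ and 0.08 ± 0.14 and 0.19 ± 0.13 in HeJ. Pole, the catalytic subunit of the leading-strand polymerase epsilon, was dim, at 24.6, 20.5 and 23.6 in OuJ air and 63.6, 48.6 and 82.8 at 48 h. Its change with no filter was 1.04 ± 0.28 in OuJ (adjusted p = 0.0355) and 0.32 ± 0.28 in HeJ (adjusted p = 0.615). Pola1, the catalytic subunit of polymerase alpha, changed by 0.52 ± 0.24 and 0.58 ± 0.24 and did not pass.

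Pcna, the ring that tethers polymerases to DNA, had signals of 2758, 2404 and 2363 in OuJ air, 2103, 2291 and 2143 at 6 h, 3166, 2822 and 2865 at 24 h and 4026, 3820.5 and 3703 at 48 h. In HeJ they were 2552, 2084 and 2078, 2299.5, 1808 and 2028, 2346, 2755 and 2667 and 3071, 3395 and 2935. The 48 h arrays were above all others of their strain. The rise from air was 0.62 ± 0.10 (1.53-fold, adjusted p = 6.97e-04) in OuJ and 0.49 ± 0.10 (1.4-fold, adjusted p = 0.00366) in HeJ. Of its loader, replication factor C, 0 of 2 tested subunits passed. The large subunit Rfc1 changed by -0.45 ± 0.21 in OuJ (adjusted p = 0.207) and -0.18 ± 0.21 in HeJ, and Rfc2 by 0.06 ± 0.11 and -0.04 ± 0.11. Rfc3, Rfc4 and Rfc5 were dim, with changes of 0.16 ± 0.46, 0.47 ± 0.33 and 0.26 ± 0.20 in OuJ and 0.44 ± 0.46, 0.19 ± 0.33 and 0.55 ± 0.20 in HeJ, none of which passed.

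Lig1, the ligase that joins Okazaki fragments, had signals of 331, 294 and 308 in HeJ air and 443, 408 and 459.6 at 48 h, apart from each other, with a rise of 0.47 ± 0.13 (adjusted p = 0.0216). The call was lost without HeJ air replicate 2 or 3 or HeJ 48 h replicate 1 or 3 (adjusted p from 0.0588 to 0.0777). OuJ arrays gave 376, 394 and 409.9 and 441, 493 and 585, a change of 0.34 ± 0.13 (adjusted p = 0.118). The flap endonuclease Fen1 was read by a probe set that split inside groups, for example 581, 1058 and 182 at 48 h in HeJ, so its changes of 0.65 ± 0.66 and -0.30 ± 0.66 have wide errors. Its other probe set, below the filter, changed by 0.49 in OuJ and 0.37 in HeJ. Of replication protein A, which coats single strands, Rpa1 changed by -0.08 ± 0.13 and -0.06 ± 0.13 and Rpa3 by -0.10 ± 0.14 and -0.11 ± 0.14. The dim middle subunit Rpa2 changed with no filter by 0.43 ± 0.18 in OuJ (adjusted p = 0.208) and by 0.61 ± 0.18 in HeJ (adjusted p = 0.0442), where signals went from 120.5, 149 and 127 to 244, 189 and 197. Its other, dimmer probe set moved the opposite way, by -0.12 in OuJ and -0.28 in HeJ.

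Chromatin factors and S phase regulators were all under the filter. Uhrf1, which carries DNA methylation through replication, had signals of 63.8, 49.2 and 37.3 in HeJ air and 177, 200.3 and 219.9 at 48 h. Its OuJ signals were 98.6, 52.4 and 72 and 178, 106 and 193. The groups did not overlap in either strain. With no filter the rise was 1.72 ± 0.33 in HeJ (adjusted p = 0.00274), and the OuJ change of 0.95 ± 0.33 did not pass (adjusted p = 0.117). The other probe set of Uhrf1, at a mean signal of only 13.4, gave the strains in the opposite order, 1.66 in OuJ and 0.75 in HeJ. The CAF-1 subunit Chaf1b changed by 0.19 ± 0.22 and 0.07 ± 0.22. Cyclin E genes, which drive entry into S phase, changed by 1.15 ± 0.43 and 0.51 ± 0.43 for Ccne1 and 0.30 ± 0.26 and 0.49 ± 0.26 for Ccne2, and E2f1, an activator of these genes, by 0.08 ± 0.22 and 0.34 ± 0.22, none passing. Among the 17 dim members, 16 lay above 0 in OuJ and 17 in HeJ at 48 h, where 48.8% and 44.1% of all genes did with no filter. Signs can depend on the probe set, as the dimmer one of E2f1 changed by -0.55 in OuJ and 0.84 in HeJ.

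**Figure D2:**
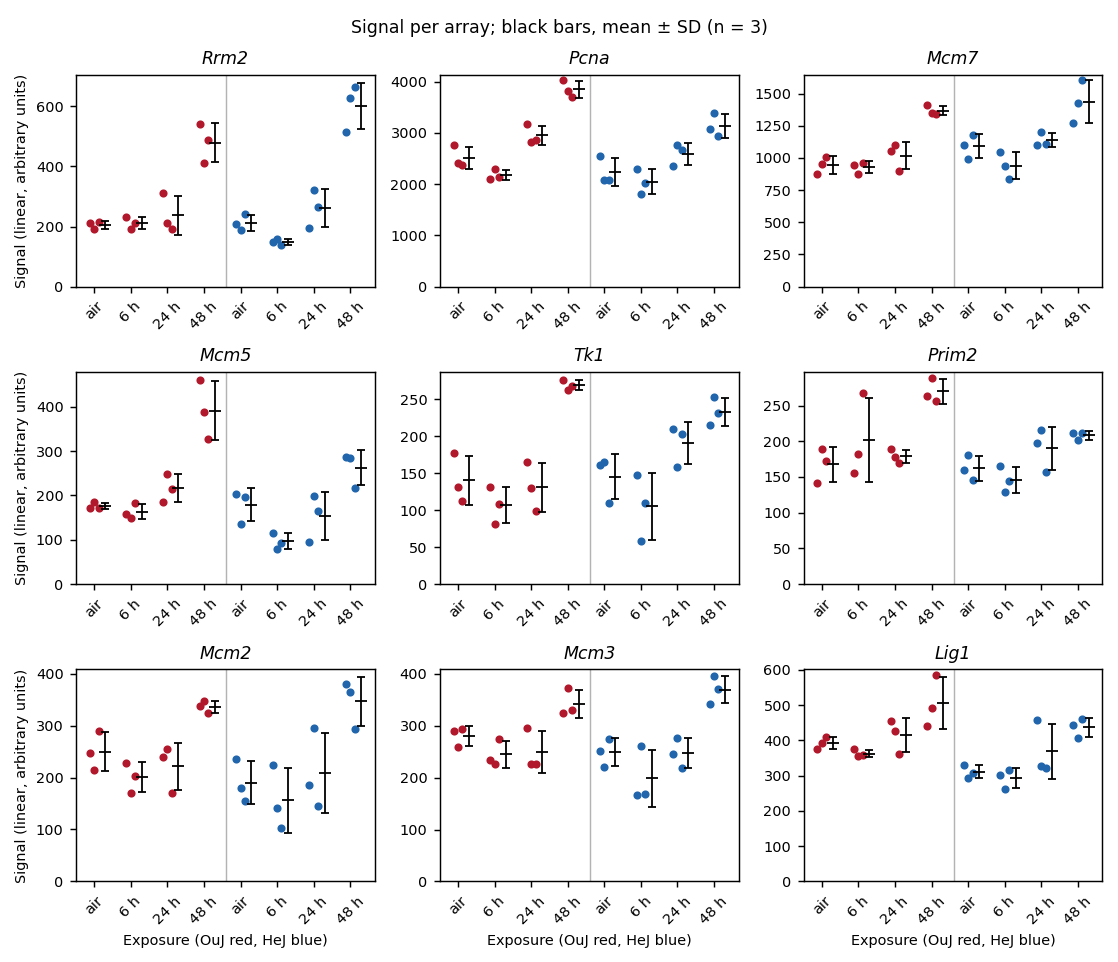
Array signal (linear, from 0) of the 9 members called at 48 h in either strain, with OuJ in red, HeJ in blue, 1 point per array and black bars for mean ± SD of 3 arrays. Rrm2 at 48 h averages 479.9 ± 64.7 in OuJ and 602 ± 77.1 in HeJ, above every array of the earlier groups.

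At 24 h no member was called. In OuJ 0 of 25 passed while 6.57% of all genes did, and in HeJ 0 of 25 passed while 7.11% did. At an unadjusted limma p under 0.05 there were 3 members in OuJ, with Rfc1 and Rpa3 lower and Pcna higher, and 1 in HeJ, Prim1, against 19.9% and 21.8% of all genes. Medians of the 25 were -0.04 in OuJ and 0.06 in HeJ, beside -0.03 and -0.02 for all genes. OuJ signals of Rfc1 were 392, 386 and 418 in air and 273, 302 and 254 at 24 h, a change of -0.51 ± 0.21 (adjusted p = 0.162). Those of Rpa3 were 283, 294 and 276 and 212, 236 and 216, a change of -0.34 ± 0.14 (adjusted p = 0.182). Neither gene's groups overlapped.

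HeJ signals of Prim1 were 383, 367 and 329 in air and 223, 312 and 219.8 at 24 h, with every exposed array below every air array. The change was -0.50 ± 0.16 (adjusted p = 0.0547), and Prim1 was the 1 member called without HeJ 24 h replicate 2. By 48 h Prim1 in HeJ was 354, 398 and 329, overlapping the air arrays. Pcna changed by 0.21 ± 0.10 in HeJ (adjusted p = 0.242), with 1 air array inside the 24 h range, and by 0.23 ± 0.10 in OuJ (adjusted p = 0.208), where the groups did not overlap.

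**Figure D3:**
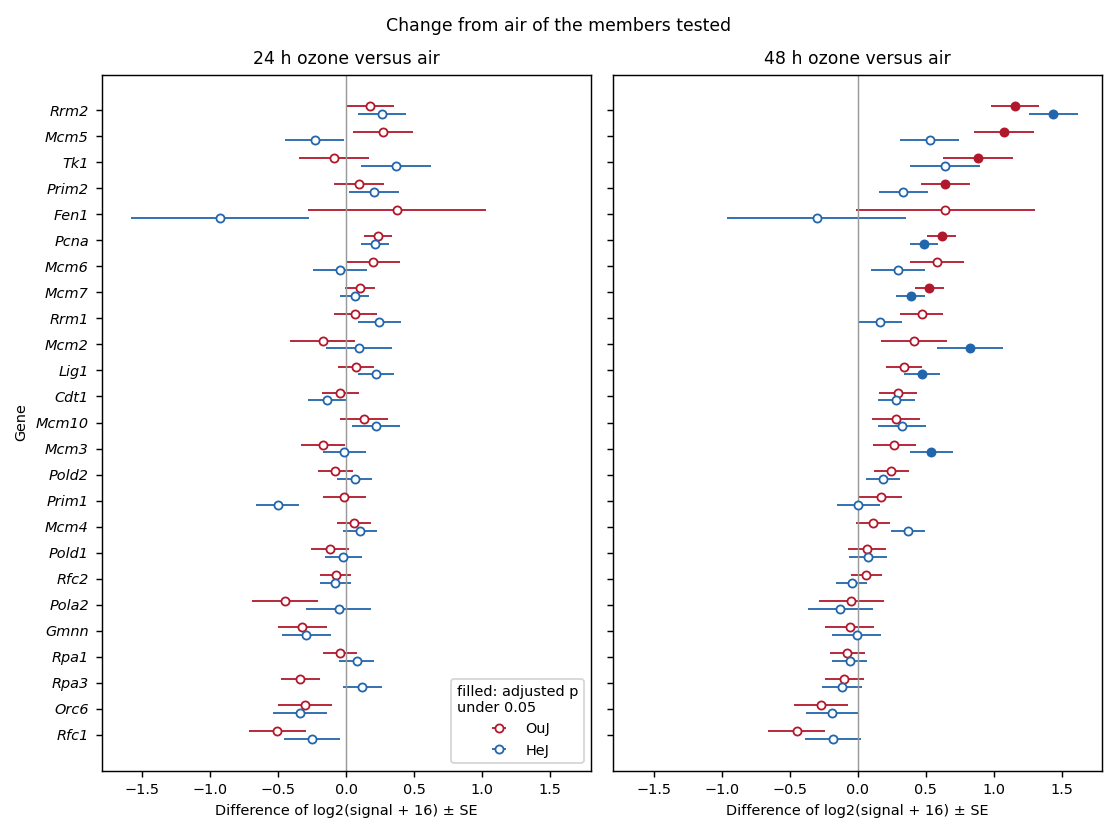
Change from air, as difference of log2(signal + 16) ± SE, of the 25 tested members at 24 h and 48 h, with OuJ in red, HeJ in blue and filled points where the adjusted p was under 0.05. No point is filled at 24 h, and 6 are filled in each strain at 48 h, from 0.39 for Mcm7 in HeJ to 1.44 for Rrm2 in HeJ.

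At 6 h most members lay below their air level and none was called. In OuJ 0 of 25 passed (0.137% of all genes did) and in HeJ 0 of 25 (0.0375% of all genes). The unadjusted limma p was under 0.05 for 1 member in OuJ, Prim1, and for 5 in HeJ, Mcm5, Mcm6, Rrm2, Rfc2 and Mcm3, all lower, against 10.5% and 9.03% of all genes. Medians were -0.16 in both strains beside -0.02 for all genes, and 19 of 25 members in OuJ and 23 of 25 in HeJ lay below 0, where 53.7% and 55.2% of all genes did. With no filter these counts were 30 and 32 of 42.

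Prim1 in OuJ read 389, 309 and 382 in air and 324, 264 and 262 at 6 h, overlapping in 1 array, with a change of -0.33 ± 0.16 (adjusted p = 0.477). Rpa3 read 283, 294 and 276 and 260.2, 203 and 229, apart, with a change of -0.29 ± 0.14 (adjusted p = 0.492). In HeJ the helicase subunits Mcm5 and Mcm6 had the smallest p. The 6 h arrays of Mcm5 (115, 80 and 93.2) were all below its air arrays (203, 136 and 196), a change of -0.79 ± 0.22 (adjusted p = 0.252). Those of Mcm6 (327, 319 and 233 against 333, 417 and 583) were too, with -0.55 ± 0.20 (adjusted p = 0.416). The comparisons at 6, 24 and 48 h share the 3 air arrays of a strain, so their values are not independent of each other.

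**Figure D4:**
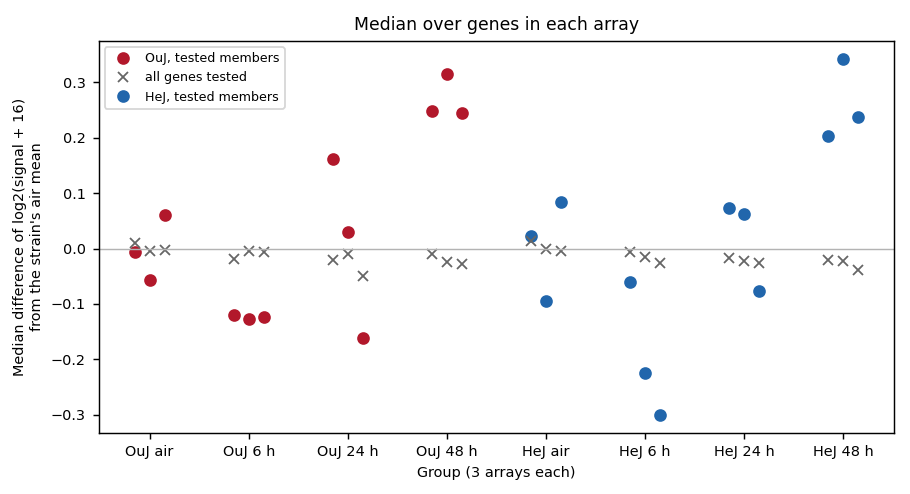
Median over the 25 tested members (coloured points) and over all genes tested (grey crosses) of log2(signal + 16) minus the strain's air mean, for each of the 24 arrays. Members lie at 0.25 to 0.32 in the OuJ and 0.20 to 0.34 in the HeJ arrays at 48 h, and at -0.13 to -0.12 and -0.30 to -0.06 at 6 h.

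The comparison of 48 with 24 h stays inside 1 code series of each strain and asks whether the members rose after the first day. Rrm2 did in both strains, and Mcm3 and Mcm5 did in HeJ. This was 1 of 25 in OuJ, where 0.15% of all genes were called higher, and 3 of 25 in HeJ, where 5.47% were called and 2.62% were higher. Medians were 0.33 and 0.27, beside 0.01 and -0.003 for all genes, with 24 and 21 of 25 above 0, where 51.3% and 49.6% of all genes were. At an unadjusted limma p under 0.05, 12 and 9 members were higher and 0 lower. The share of all genes at that threshold was not counted here, so these 2 counts cannot be weighed. With no filter Rrm2 was the only member called in either strain, beside 0.121% of genes called higher in OuJ and 1.27% in HeJ. Of the 42, 39 and 35 lay above 0, where 53.9% and 47.3% of all genes did. The changes from 24 to 48 h share the 48 h arrays with the comparisons with air.

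Rrm2 rose by 0.99 ± 0.18 in OuJ (adjusted p = 0.0106) and 1.17 ± 0.18 in HeJ (adjusted p = 0.00124). The OuJ call was lost without OuJ 24 h replicate 2 or 3 or OuJ 48 h replicate 1 or 3 (adjusted p from 0.0556 to 0.131), and with only the groups compared in the fit (adjusted p = 0.133). With the second brightest kept probe set of Rrm2 the changes were 1.37 in OuJ and 0.72 in HeJ, and neither passed (adjusted p = 0.101 and 0.201). Mcm3 rose by 0.56 ± 0.16 (adjusted p = 0.0413) in HeJ, from 245, 276 and 219 at 24 h to values that did not overlap. Its other probe sets, below the filter, changed by 0.57, 0.76, 0.03 and -0.71 there. Mcm5 rose by 0.76 ± 0.22 (adjusted p = 0.0421), also without overlap, and with the replicate number as a block its adjusted p was 0.0505. Both were lost in each of 5 fits that left out 1 HeJ array, namely 24 h replicate 1 or 3 or any at 48 h (adjusted p from 0.0649 to 0.17 for Mcm3 and from 0.0548 to 0.252 for Mcm5), and the count of members was 5 without HeJ 24 h replicate 2. Both were also lost with no filter (adjusted p = 0.067 and 0.0638) and with only the groups compared (adjusted p = 0.0812 and 0.148). The codes of 4 arrays carry a suffix, and without these, which leaves 1 HeJ array at 24 h, 0 members passed in HeJ. In OuJ, Mcm7 (0.43 ± 0.11), Tk1 (0.98 ± 0.26), Mcm5 (0.81 ± 0.22) and Pcna (0.38 ± 0.10) had the next smallest p and did not pass (adjusted p from 0.155 to 0.203).

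**Figure D5:**
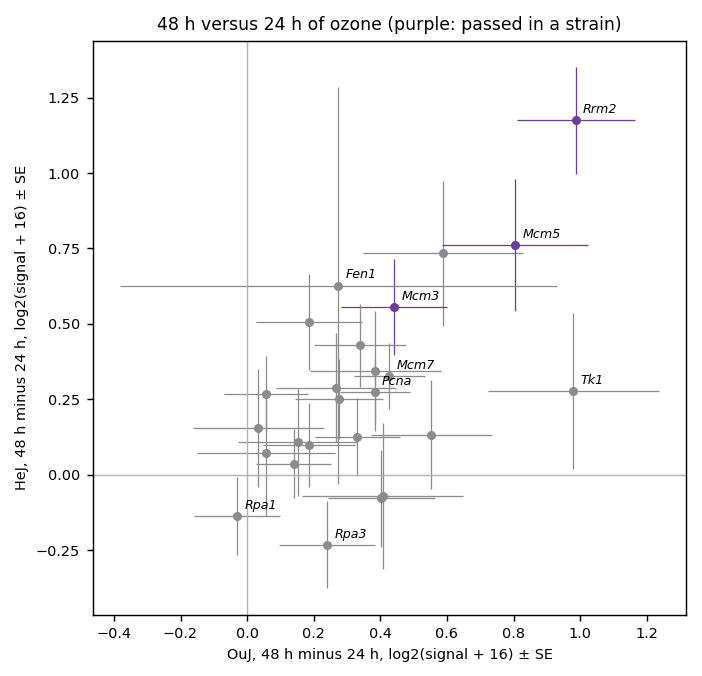
Change from 24 to 48 h in OuJ (horizontal) and HeJ (vertical), as difference of log2(signal + 16) ± SE, for the 25 tested members, with purple for those that passed in a strain. Rrm2 lies farthest to the upper right at 0.99 and 1.17, and 24 members lie right of 0 and 21 above 0.

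Whether the strains responded differently was tested by subtracting the HeJ change from the OuJ change. No member passed at 24 h, at 48 h or from 24 to 48 h, and 0.0125%, 0% and 0% of all genes did. The unadjusted limma p was under 0.05 for 2, 0 and 2 members, against 7.82%, 8.22% and 11.1% of genes. The intervals are wide, and the sets of members that passed in OuJ and in HeJ are not shown to differ. At 48 h the smallest p were those of Mcm5, with a difference of 0.55 ± 0.31 (95% interval -0.09 to 1.19, adjusted p = 0.691), and Mcm4, with -0.25 ± 0.18 (95% interval -0.62 to 0.12, adjusted p = 0.772). For Mcm4 the arrays were 595, 523 and 600.1 in OuJ air, 628, 611 and 622 in OuJ at 48 h, 524, 422 and 553 in HeJ air and 649, 636 and 651 in HeJ at 48 h. Rrm2, Pcna and Mcm7 differed by -0.28 ± 0.25, 0.13 ± 0.15 and 0.14 ± 0.15, with 95% intervals of -0.80 to 0.24, -0.18 to 0.44 and -0.18 to 0.45.

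At 24 h the 2 members were Rpa3 (-0.46 ± 0.20, adjusted p = 0.615) and Prim1 (0.49 ± 0.22, adjusted p = 0.626). Rpa3 in HeJ read 283, 224 and 258 in air and 324, 256 and 256 at 24 h, overlapping, and Prim1 in OuJ read 389, 309 and 382 and 442, 298 and 336, also overlapping. From 24 to 48 h they were Rpa3 (0.47 ± 0.20, adjusted p = 0.41) and Rrm1 (0.48 ± 0.23, adjusted p = 0.441). Rrm1 read 509, 458 and 447 at 24 h and 665, 583 and 638 at 48 h in OuJ, apart, and 549.8, 382 and 391 and 424, 467 and 349.9 in HeJ, overlapping. The other kept probe set of Rrm1 rose in both strains from 24 to 48 h, by 0.51 in OuJ and 0.32 in HeJ.

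In air 0 of 25 members differed between the strains, where 0.774% of all genes did. At an unadjusted limma p under 0.05 there was 1 member, Lig1, against 14.2% of genes. Lig1 read 376, 394 and 409.9 in OuJ and 331, 294 and 308 in HeJ, without overlap (0.33 ± 0.13, adjusted p = 0.25). Mcm7 read 876, 951 and 1009.6 and 1104, 992 and 1177, overlapping (-0.20 ± 0.11, adjusted p = 0.411).

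Other genes of the cell cycle were taken from lists drawn up beside the members. Of 19 mitosis genes on the array 10 were tested, and whether any passed the filter only through its 48 h arrays was not examined. Summed signals of the 19 averaged 2008 in OuJ air and 4485 at 48 h, and 1980 and 3985 in HeJ. Genes let in by their 48 h arrays are high there by selection, so counts of mitosis genes higher at 48 h cannot be weighed. Over all genes, 3.7% in OuJ and 5.67% in HeJ were called higher at 48 h than in air. Of the 10 mitosis genes, 9 rose at 48 h in OuJ and 7 in HeJ, with medians of 1.14 and 0.96. Among them Mki67, the proliferation antigen Ki-67, rose by 1.58 ± 0.27 and 1.53 ± 0.27 (adjusted p = 7.56e-04 and 6.97e-04), and the spindle protein Prc1 by 1.03 ± 0.18 and 0.83 ± 0.18 (adjusted p = 7.56e-04 and 0.0034). From 24 to 48 h, 6 of the 10 rose in OuJ and 2 in HeJ, Prc1 and the ubiquitin-conjugating enzyme Ube2c among both. Over all genes, 0.15% and 2.62% were called higher from 24 to 48 h. At 24 h 0 of 10 passed in either strain, beside 6.57% and 7.11% of all genes, with medians of -0.23 in OuJ and 0.35 in HeJ.

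Of 23 tested genes of G1/S control, 4 passed at 24 h in each strain (17.4%, against 6.57% of all genes in OuJ and 7.11% in HeJ). The kinase inhibitors Cdkn1a (p21) and Cdkn1c (p57) were higher, by 1.26 ± 0.36 and 0.80 ± 0.18 in OuJ and 1.74 ± 0.36 and 1.01 ± 0.18 in HeJ (adjusted p from 0.00167 to 0.0354). The inhibitor Cdkn2c (p18) was lower, by -0.87 ± 0.17 and -0.80 ± 0.17 (adjusted p = 0.00213 and 0.00442). The kinase Cdk4 was lower in OuJ (-0.42 ± 0.12, adjusted p = 0.0405) and the inhibitor Cdkn2d higher in HeJ (0.47 ± 0.12, adjusted p = 0.0169). At 48 h 3 passed in each strain (13%, against 7.9% of all genes in OuJ and 12.1% in HeJ). They were Cdkn1c and Cdkn2c, in the same directions, in both, the S phase cyclin Ccna2 in OuJ (0.78 ± 0.19, adjusted p = 0.0116) and the repressor E2f6 in HeJ (0.58 ± 0.18, adjusted p = 0.0323), the last 2 higher. From 24 to 48 h in HeJ the pocket protein Rbl1 rose by 0.64 ± 0.16 (adjusted p = 0.0234) and Cdkn2d fell, at -0.45 ± 0.12 (adjusted p = 0.0273).

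Among 21 other genes of nucleotide supply, 2 (9.52%) passed at 24 h in OuJ and 1 (4.76%) in HeJ, and 1 (4.76%) and 5 (23.8%) at 48 h. The shares of all genes were 6.57% and 7.11% at 24 h and 7.9% and 12.1% at 48 h. Ctps, which makes CTP, rose at both times in both strains, by 0.70 ± 0.14 and 0.74 ± 0.14 in OuJ and 0.55 ± 0.14 and 0.95 ± 0.14 in HeJ (adjusted p at most 0.0154). Tk2, the mitochondrial thymidine kinase, fell in OuJ at 24 h (-0.57 ± 0.17, adjusted p = 0.0399). In HeJ at 48 h Rrm2b, the small reductase subunit that serves outside S phase, fell (-0.56 ± 0.10, adjusted p = 8.00e-04), opposite to Rrm2. Shmt2, a mitochondrial enzyme of one-carbon supply, and Adss, of AMP synthesis, rose there by 0.63 ± 0.15 and 0.36 ± 0.09 (adjusted p = 0.00768 and 0.0147).

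Of 13 other replisome genes, 2 rose at 48 h in each strain (15.4%, against 3.7% of all genes called higher in OuJ and 5.67% in HeJ). They were the topoisomerases Top1 (0.64 ± 0.11 and 0.44 ± 0.11) and Top2a (0.97 ± 0.25 and 1.10 ± 0.25), with adjusted p of 6.97e-04 and 0.0163 in OuJ and 0.01 and 0.00503 in HeJ. Top1 had risen in OuJ by 24 h (0.65 ± 0.11, adjusted p = 6.47e-04). Of 12 other replication-coupled chromatin genes, 2 (16.7%) rose at 48 h in OuJ and 3 (25%) in HeJ, against the same shares of all genes. These were H2ax and the histone acetyltransferase Hat1 in OuJ, and the histone chaperones Asf1b and Nasp and H2ax in HeJ, by 0.42 to 1.06. H2ax, the histone variant marked at DNA breaks, had passed at 24 h in HeJ (0.54 ± 0.10, adjusted p = 0.003). Of 7 other origin genes 0 passed in these comparisons. None of these genes passed at 6 h in either strain.

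Other measures moved with the 48 h groups, and their part in the members' changes was not tested. Markers of B cells were lower in 5 of 6 tested genes in OuJ and 6 of 6 in HeJ, with summed signals of 8 markers of 3655 to 4653 in OuJ air, 1879 to 2244 in OuJ at 48 h, 3949 to 5160 in HeJ air and 1773 to 2143 in HeJ at 48 h. Markers of T and NK cells were lower in 1 of 7 and 6 of 7, with sums of 9 markers of 3087 to 3852, 1919 to 1940, 2469 to 3132 and 1189 to 1533 in the same order. Markers of endothelial cells were lower in 4 of 10 and 7 of 10, with sums of 30966 to 35149, 24293 to 27196, 37529 to 39627 and 28556 to 32722. Markers of neutrophils were lower in 2 of 4 tested genes in OuJ, the calprotectin subunits S100a8 and S100a9, and in 0 of 4 in HeJ, with sums of 6 markers of 2523 to 3496, 1129 to 1731, 2095 to 2703 and 1310.3 to 2303. Markers of smooth muscle were called in 0 of 6 in OuJ and higher in 2 of 6 in HeJ, Acta2 and Actg2, with sums of 7 markers of 4637 to 6688.5, 5450.4 to 7566, 4641 to 6706 and 7839.8 to 9376. Of 9 macrophage markers 0 were called in OuJ, and in HeJ Marco and Chil3 were higher and Csf1r lower, with sums of 11 markers of 14610.2 to 16041, 15765 to 16794, 16418.5 to 18612 and 16512 to 19916. Of 3 ciliated cell markers Tppp3 was lower in both strains, with sums of 4 markers of 4205 to 4817.5, 2987.5 to 3889.6, 5176 to 5609.7 and 3641 to 4729. Lists of alveolar type 1 and type 2 cells, club cells and fibroblasts had 0 to 2 genes called in a strain. The B cell receptor gene Cd79a (141.5 at its lowest) and the T cell gene Cd3e (48 at its lowest) were above 0 in every array, and among the B cell markers Pax5 averaged under 16 in HeJ at 48 h. B cell markers were also lower at 24 h, in 6 of 6 genes in each strain, with sums of 1276 to 1809 in OuJ and 1671 to 2352 in HeJ. The 5' to 3' signal ratio of Gapdh, a sign of RNA quality, averaged 0.843 in OuJ air, 0.851 at 24 h and 0.894 at 48 h, and 0.558, 0.753 and 0.593 in HeJ. In HeJ it was highest at 24 h.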

How the data were processed

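The authors deposited linear signal intensity values, 1 Affymetrix array per mouse, and used GCOS 1.4, per the submitters' processing notes. For its settings and the genome build, nothing is given in the sources used here. Arrays had been scaled, since means trimmed by 2% at each tail ran from 500.144 to 500.166. The values come without detection calls.

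The 22690 probe sets were put on the scale log2(intensity + 16). Those exceeding 218.3, the overall median, in 3 or more of the 24 arrays were kept, and the one with the highest mean stood for each gene, taken from the platform annotation where it gave 1 symbol. Group means were fitted over all 24 arrays in limma 3.58.1 (R 4.3.3, data.table version 1.17.8), with an intensity trend, two-sided p-values and Benjamini-Hochberg adjustment over the 8008 genes in each of 12 comparisons. An exact test of 3 against 3 arrays cannot go below 0.1, so single genes were tested with limma. P-values set a difference of group means against the spread between mice within groups, estimated over all 24 arrays. That spread does not cover a difference between code series, and the number of arrays limits precision. The fit was tested on simulated data.

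Every member is named. Values array by array are given for up to 8 members that passed with the smallest p against air, up to 4 for the other comparisons, and for 2 where none passed. Up to 4 genes per other list and comparison are named. The members and lists were chosen with earlier results of these data known. Same-numbered arrays did not deviate together (median correlation of deviations from the group means 0.0386, 0.00508 and 0.0335 for replicates 1, 2 and 3), so the number was not used to pair mice. The alternatives tried were no filter, pseudocounts of 1 and 64, quantile or median scaling, a mean over a gene's probe sets or 2 other choices of probe set, no trend, a fit limited to the groups compared, a block for the replicate number, and fits without the 4 arrays whose codes have a suffix or without each array in turn.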

Additional observations from a re-analysis of the deposited data

Results flagged for a closer look

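After 6 h of ozone all 3 OuJ arrays of Chaf1b, a subunit of the histone chaperone CAF-1, lay above the OuJ air mean, and all 3 HeJ arrays lay below the HeJ air mean. The changes were 0.32 and -0.34, and the OuJ change exceeded the HeJ change by 0.66. For Ccne2, cyclin E2, the directions were the other way round, with -0.17 in OuJ and 0.40 in HeJ, a difference of -0.57. Exposed and air arrays overlapped for Chaf1b in HeJ and for Ccne2 in both strains, but not for Chaf1b in OuJ. Both genes were under the filter, and the difference between the strains was not tested for either. Such opposite signs were looked for in the 17 members under the filter at 6, 24 and 48 h. How often other genes show them was not counted, so these flags cannot be weighed.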

How the results depend on the processing

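No alternative reversed the direction of a called change. Single probe sets that no alternative used alone did go the other way at 48 h. These were a kept one of Mcm7 in OuJ (-0.02) and a dim one of Mcm3 in HeJ (-0.51). The count of members called at 48 h against air was 4 to 5 in OuJ and 2 to 5 in HeJ with 1 array left out, lowest in HeJ without air replicate 2, and 3 in HeJ without the arrays with a code suffix (Lig1, Pcna and Rrm2). Rrm2, Pcna, Mcm5 and Mcm7 in OuJ and Rrm2 and Pcna in HeJ passed at 48 h in all 18 alternatives. For 48 against 24 h the count was 0 to 1 in OuJ with 1 array left out, and 0 with only the groups compared or with the second kept probe set. In HeJ it was 1 to 5 with 1 array left out, 5 with median centring, 1 with no filter or only the groups compared, and 0 without the suffix arrays, where the lone array at 24 h is assumed to vary like the other groups. At 24 h in HeJ it was 0 to 1 with 1 array left out, 1 with the mean of the probe sets (Prim1, lower) and 1 with the second kept probe set (Mcm7, higher). With the replicate number as a block the counts were 6 and 6 at 48 h against air, and 1 in OuJ and 3 in HeJ for 48 against 24 h, where Mcm2 passed in place of Mcm5. The counts at 6 h, at 24 h in OuJ, in air and for the strain differences were 0 under every alternative run. The 2 other choices of probe set were made after seeing the data. The cause of these differences was not tested, other than that the fits with fewer arrays have fewer samples. Dim probe sets limit what can be said of the 17 members under the filter, and signals of different genes cannot be ranked.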
